A study of Homo sapiens with 18 samples.

Results

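The BCL2 family decides whether a cell's mitochondria stay intact, and 9 of its genes were followed here in melanoma cells treated with A-485. Transcripts of 10 genes were sought, 4 that protect cells (BCL2, BCL2A1, BCL2L1 and MCL1) and 6 that promote death (BCL2L11, BIK, PMAIP1, BBC3, BMF and BID), by taking every probe set annotated to the gene alone. On the array used, 29 of 54613 probe sets met this rule, 15 of survival genes and 14 of death genes, and they covered 9 of 19775 genes. The only probe set of BBC3 is also annotated to other genes, so BBC3 is not described.

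Survival proteins of the family bind and restrain their death-promoting relatives on the outer mitochondrial membrane. The death genes studied here encode BH3-only proteins, which carry a short BH3 helix that occupies the groove of survival proteins or activates the pore formers BAX and BAK. Once pores open, cytochrome c leaves the mitochondria and caspases are switched on. In melanoma, BCL2A1 and BCL2 are known targets of MITF, the transcription factor of the melanocyte lineage, and MCL1 is known as a short-lived protein with a short-lived messenger RNA.

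SKMEL5, WM2664 and A375 cells were given A-485 for 6 h or 24 h, and each sample was set against DMSO-treated cells of the same line and time. A-485 is a small molecule that blocks the acetyltransferase activity of the coactivators p300 and CBP. SKMEL5, WM2664 and A375 are human melanoma cell lines that carry BRAF mutations, and each was grown in RPMI with 10% FBS. Every line and time had 1 A-485 array and 2 DMSO arrays, so there were 6 A-485 arrays and 12 DMSO arrays. The A-485 dose is labelled 3 mM in every case, a unit that was not checked. The submitters describe a pair of sensitive lines and a resistant one without saying which is which. RNA came from bulk cultures, so fewer cells that express a gene and less transcript per cell cannot be told apart.

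Intensities are given after scaling all arrays to the same distribution, with values below 32 set to that floor. Replicate DMSO arrays correlated at 0.986 to 0.992 (Pearson, across probe sets). The labels do not say whether replicates are separate cultures, so the p-values may cover technical spread only. The error of each single A-485 array was taken from the DMSO pairs. Where an A-485 array lies above or below both DMSO arrays, or groups do not overlap, 1 array stands against 2. That is easily met with no effect of treatment, and its share over all probe sets was not counted. A difference was called at an adjusted p under 0.05 by limma (Benjamini-Hochberg over 23262 probe sets), and 22 of the 29 member probe sets were bright enough to be tested, 10 of survival genes and 12 of death genes. Genes are described by their brightest suitable probe set. Each gene's level is compared only with itself, since intensities of different probe sets are not on a common scale. The summed level of 7 melanocyte lineage markers was 37595 to 48741 in SKMEL5 and 18285 to 34746 in WM2664, and only 488 to 1943 in A375. Both measured leukocyte markers lay at the floor in SKMEL5 and WM2664 and summed to 64 to 65.6 units in A375, where 64 is the floor for a pair. Summed over 4 genes each, fibroblast markers were 3962 to 5315, 2868 to 5619 and 570 to 2661 units, and keratinocyte markers 309 to 906, 128 on every array (the floor for 4 genes) and 182 to 432 units, in SKMEL5, WM2664 and A375. Some of these markers moved with treatment. COL1A1 had 403 units with A-485 in A375 at 24 h against 2308 and 2039 units with DMSO, and 731 units at 6 h against 1349 and 1253 units. COL1A2 had 5503 units with A-485 in WM2664 at 24 h against 2756 and 2898 units with DMSO. KRT14 fell in A375 and CDH1 in SKMEL5 at both times, with a log2 difference of -1.76 at 24 h in each. The part of these markers in the results was not tested. Transcripts of another line were found at a low level on 3 DMSO arrays, by their median excess over genes bright in that line and dim in the host. These were 1.90% of the SKMEL5 level on replicate 1 of WM2664 at 6 h, 0.819% of the SKMEL5 level on replicate 1 of A375 at 6 h, and 0.945% of the A375 level on replicate 2 of WM2664 at 24 h. Each DMSO array was compared with its replicate only, so an excess shared by both would not be seen. The A-485 arrays were not searched.

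With DMSO alone, the lines differed in BCL2A1, BIK, BMF and PMAIP1, among others. BCL2A1, a survival protein of the haematopoietic and melanocyte lineages, had 1521 ± 28.9 units in SKMEL5 and 2548 ± 247 units in WM2664, against 33.7 ± 2.03 units in A375 (SD, n = 4 DMSO arrays of each line, 2 from each time), where 2 of the 4 arrays were at the floor. BIK, a BH3-only protein of the endoplasmic reticulum, stood the other way, with 48.4 ± 8.69 units in SKMEL5 and the floor value on all 4 arrays of WM2664, against 433 ± 51.1 units in A375. BMF, a BH3-only protein known for its binding to the cytoskeleton, had 99.1 ± 31.6 units in SKMEL5 and 61.3 ± 13.6 units in WM2664, and was at the floor on all 4 arrays of A375. BMF, BIK and BCL2A1 therefore had no measurable room to fall in the lines where they lay at the floor.

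PMAIP1, which encodes NOXA, a BH3-only partner of MCL1, had 364 ± 89.3 units in SKMEL5 and 492 ± 99.0 units in WM2664, against 1975 ± 230 units in A375. MCL1 had 985 ± 45.8, 1255 ± 49.0 and 1896 ± 221 units in the same order of lines. BCL2L1, which encodes BCL-XL, had 326 ± 22.3, 203 ± 20.4 and 704 ± 34.1 units. For BCL2L1, MCL1, PMAIP1, BIK, BCL2L11 and BID, no DMSO array of SKMEL5 or WM2664 reached the lowest DMSO array of A375. How often this held over all probe sets was not counted, so it is not read as a trait of these genes. Between the lines under DMSO, 74.1% of comparisons over all tested probe sets were called. BCL2 ran the other way and over a narrower range, with 162 ± 13.7 units in SKMEL5 and 157 ± 20.0 units in WM2664, against 114 ± 14.7 units in A375. BCL2L11, which encodes BIM, had 464 ± 136, 514 ± 49.7 and 699 ± 58.0 units, and BID, which caspase-8 cleaves into an active form, had 490 ± 41.2, 461 ± 27.4 and 639 ± 54.4 units.

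The differences between lines under DMSO were called for 24 of 27 gene comparisons, and for 56 of 66 comparisons over all member probe sets, 84.8%. Of all tested probe sets 74.1% were called in the same comparisons. BCL2A1 was 45.2-fold higher in SKMEL5 (adjusted p = 2.37e-11 by limma) and 75.4-fold higher in WM2664 (adjusted p = 1.23e-11) than in A375 with the floor at 32 units. These folds depend on the floor, since 2 of the 4 A375 arrays lay at it: with a floor of 64 and of 16 the log2 differences were 4.57 and 5.90 in SKMEL5 and 5.31 and 6.63 in WM2664. BIK was at least 13.5-fold lower in WM2664 than in A375, and the SKMEL5 minus A375 difference was -3.17 ± 0.08 (log2 ± SE). PMAIP1 was 5.53-fold lower in SKMEL5 than in A375 and 4.05-fold lower in WM2664 than in A375. At the main probe sets, BCL2, BCL2L11 and BID were the genes whose SKMEL5 minus WM2664 difference was not called. These differences were 0.05 ± 0.12, -0.20 ± 0.14 and 0.09 ± 0.07 on the log2 scale. The WM2664 minus A375 difference of BCL2L11 (-0.44 ± 0.14, adjusted p = 0.0167 by limma) lost its call without any of 4 DMSO arrays, which were replicate 2 of both lines at 6 h and replicate 1 of both lines at 24 h.

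**Figure D1:**
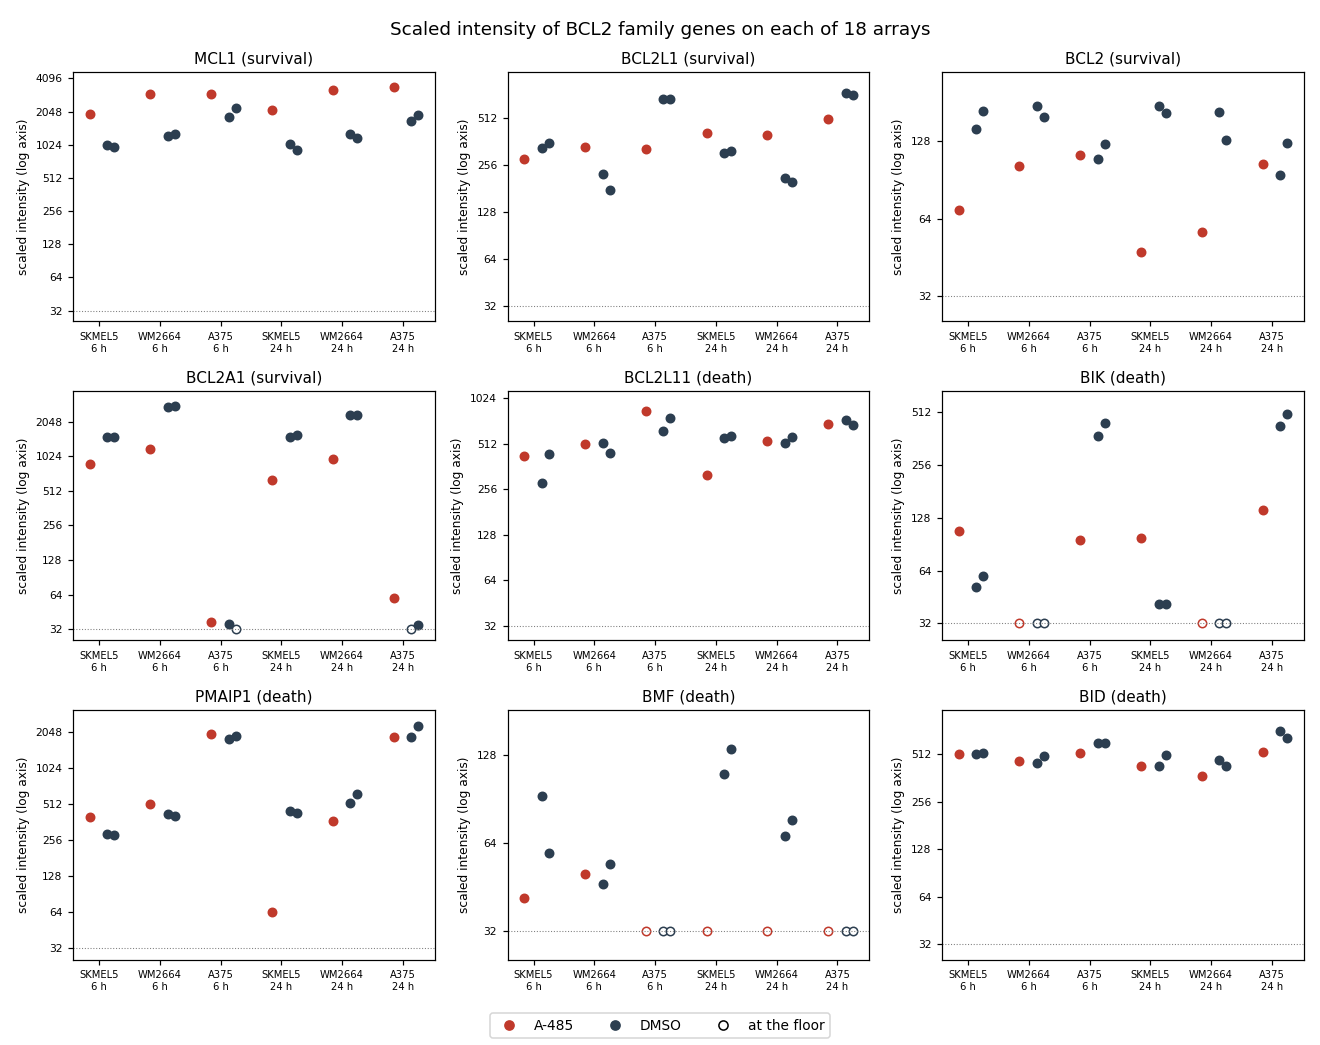
Scaled intensity of the 9 genes on each of the 18 arrays, with a separate log2 vertical axis for each gene and the line and time along the horizontal axis. Each point is 1 array, A-485 (1 array) stands left of DMSO (2 arrays), the dotted line marks the floor of 32 and open points lie at it; MCL1 with A-485 stands above both DMSO arrays in all 6 cases.

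After A-485, the 9 genes moved in both directions and the survival genes did not move as a block. Over the 6 line and time comparisons, 63 of 132 member probe set comparisons were called, 47.7%, with 34 higher and 29 lower. The share over all tested probe sets was 22.4%, with 11.5% higher and 10.9% lower. Survival probe sets were higher in 27 and lower in 12 of 60 comparisons, while death probe sets were higher in 7 and lower in 17 of 72. Probe sets of 1 gene read the same transcript pool, and MCL1 holds 5 of the 10 tested survival probe sets. With 1 probe set a gene, survival genes were higher in 10 and lower in 10 of 24 comparisons, and death genes were higher in 3 and lower in 8 of 30. Of these 31 gene calls, 11 held under every alternative of scaling, floor, filter, probe set, fit and left-out DMSO array that was run. Some probe sets were not tested in every alternative, and no call could be tried without its only A-485 array. Whether survival and death genes differed as classes was not tested.

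By line, the 10 survival and 12 death probe sets divided as follows. In SKMEL5 at 6 h, 4 survival probe sets were higher and 2 lower, and 3 death probe sets were higher and 1 lower, where 20.1% of all tested probe sets were called, 10.3% higher and 9.81% lower. In WM2664 at 6 h the survival probe sets counted 5 higher and 2 lower and the death probe sets 1 higher and 2 lower, where 24.6% of all were called, 13% higher and 11.6% lower. In A375 at 6 h the survival probe sets counted 2 higher and 3 lower and the death probe sets 2 higher and 2 lower, where 9.55% of all were called, 3.47% higher and 6.07% lower. At 24 h, 1 death probe set was higher and 4 were lower in SKMEL5. In WM2664 and A375 at 24 h, 0 death probe sets were called higher by limma (0 and 1 at an unadjusted p under 0.05), and 5 and 3 were called lower. Survival probe sets at 24 h counted 6 higher and 2 lower in SKMEL5, 7 higher and 2 lower in WM2664, and 3 higher and 1 lower in A375. The shares of all tested probe sets called at 24 h were 34.3% in SKMEL5 (18.4% higher, 15.9% lower), 31.6% in WM2664 (16.7% higher, 14.9% lower) and 14.0% in A375 (6.76% higher, 7.20% lower). The median differences of survival probe sets ran from 0.03 to 0.86 over the 6 comparisons, and those of death probe sets from -0.23 to 0.23, while the median of all tested probe sets was 0.02 to 0.03 (log2).

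**Figure D2:**
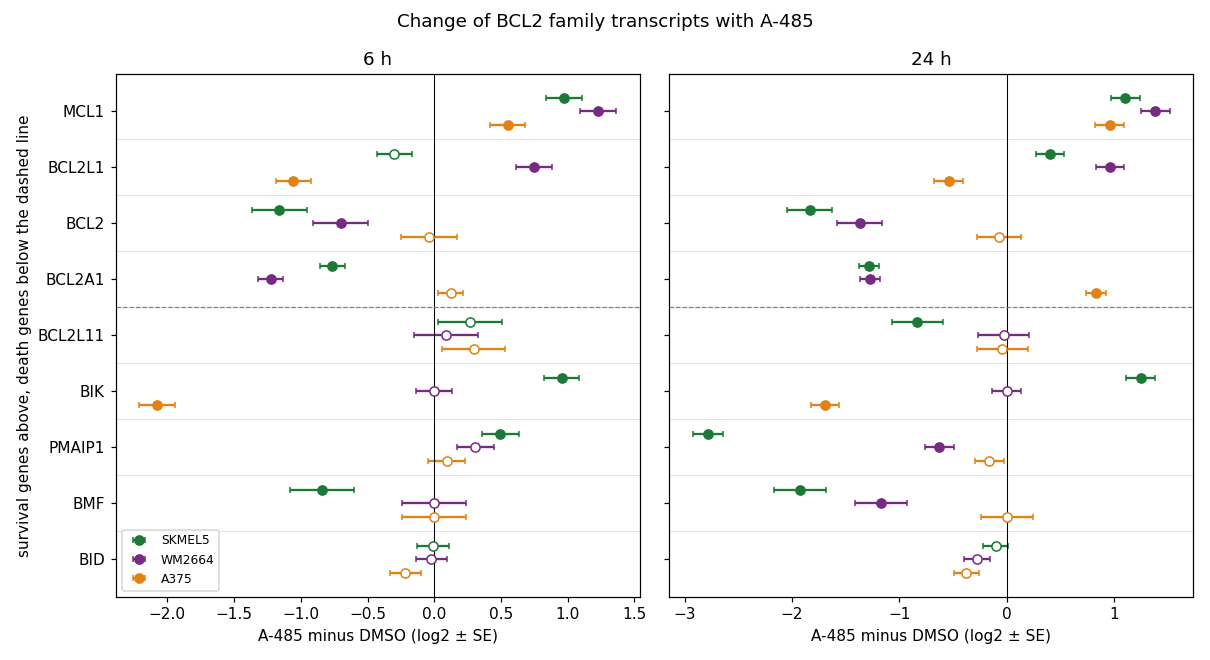
A-485 minus DMSO difference of the 9 genes (horizontal axis, log2 ± SE from limma) at 6 h and 24 h, with 1 point a line and filled points for called differences. MCL1 lies right of 0 in all 3 lines at both times, BCL2 and BCL2A1 lie left of 0 in SKMEL5 and WM2664, and BIK moves in opposite directions in SKMEL5 and A375.

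MCL1, whose protein restrains several BH3-only proteins, rose in all 3 lines at both times. At 6 h MCL1 had 1946 units with A-485 in SKMEL5 against 1010 and 973 units with DMSO, and 2968 units in WM2664 against 1242 and 1296 units. In A375 at 6 h it had 2930 units with A-485, against 1825 and 2197 units with DMSO. All 3 A-485 arrays were above both of their DMSO arrays. At 24 h MCL1 had 2101 units with A-485 in SKMEL5 against 1031 and 927 units with DMSO, 3236 units in WM2664 against 1290 and 1191 units, and 3459 units in A375 against 1671 and 1891 units. The groups again did not overlap in any line. The log2 differences at 6 h were 0.97 ± 0.13 in SKMEL5, 1.23 ± 0.13 in WM2664 and 0.55 ± 0.13 in A375, with adjusted p = 0.00200, 0.000451 and 0.0391 by limma. At 24 h they were 1.10 ± 0.13, 1.38 ± 0.13 and 0.96 ± 0.13 in the same order of lines, with adjusted p = 0.000523, 0.000184 and 0.00241. Averaged over the lines, MCL1 was higher by 0.92 ± 0.08 at 6 h and by 1.15 ± 0.08 at 24 h (adjusted p = 6.85e-05 and 1.39e-05), comparisons in which 20.9% and 25.4% of all tested probe sets were called higher. A rise called in every line at both times was found for 0.443% of tested probe sets, 103 in number.

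In A375 the 6 h call of MCL1 depended on single arrays, and the response differed between probe sets. The 24 h call held on leaving out any DMSO array. It was lost without scaling between arrays and with the values as deposited, at 0.90 in both. The A375 call at 6 h was lost on leaving out any of 7 DMSO arrays, which were the 6 h arrays other than replicate 2 of A375 and both 24 h arrays of WM2664, and the difference was 0.42 without replicate 1 of A375 at 6 h (adjusted p = 0.130 by limma). That array is one of those carrying transcripts of SKMEL5. Of the other MCL1 probe sets, 200798_x_at was higher in A375 by 0.35 at 6 h and 0.39 at 24 h and was called at both times. Probe sets 214056_at and 214057_at gave A375 differences of 0.04 to 0.18 that were not called, and 200796_s_at gave 0.20 and 0.02, not called either. In SKMEL5 and WM2664 all 5 tested probe sets of MCL1 had positive differences, 0.69 to 1.68, and 18 of these 20 values were called. At the main probe set, 0 of 6 differences of the MCL1 response between lines were called by limma (1 at an unadjusted p under 0.05). At 200798_x_at the response was greater in SKMEL5 than in A375 by 0.74 at 6 h and greater in WM2664 than in A375 by 0.86 at 6 h and 0.70 at 24 h.

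**Figure D3:**
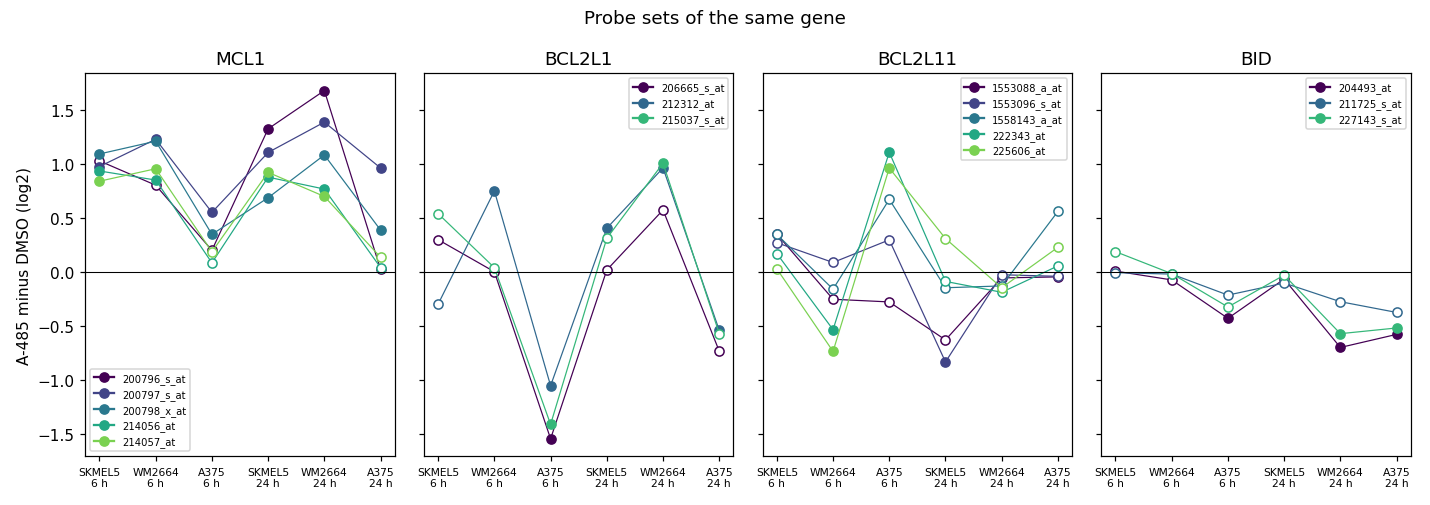
A-485 minus DMSO difference (vertical axis, log2) of every tested probe set of MCL1, BCL2L1, BCL2L11 and BID in each line and time (horizontal axis), with filled points for called differences. Lines join the values of 1 probe set; the MCL1 probe sets agree in sign and spread apart in A375, and those of BCL2L11 disagree in sign.

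BCL2L1 differed in direction between lines. With A-485, BCL2L1 had 333 units in WM2664 at 6 h against 223 and 176 units with DMSO, and 401 units at 24 h against 213 and 199 units. In A375 it had 325 units with A-485 at 6 h against 673 and 679 units with DMSO, and 503 units at 24 h against 745 and 719 units. In SKMEL5 it had 278 units with A-485 at 6 h against 329 and 356 units with DMSO, and 409 units at 24 h against 305 and 313 units. BCL2L1 with A-485 thus lay above both DMSO arrays in WM2664 and below both in A375 at each time. In SKMEL5 it lay below them at 6 h and above them at 24 h.

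The WM2664 rise of BCL2L1 was 0.75 ± 0.13 at 6 h and 0.96 ± 0.13 at 24 h (log2 ± SE, adjusted p = 0.00473 and 0.00112 by limma). The A375 fall was -1.05 ± 0.13 at 6 h and -0.54 ± 0.13 at 24 h (adjusted p = 0.00171 and 0.0308). In SKMEL5 the 6 h difference of -0.30 ± 0.13 was not called, and the 24 h difference of 0.40 ± 0.13 was (adjusted p = 0.0466). The response in WM2664 minus that in A375 was 1.80 ± 0.19 at 6 h and 1.5 ± 0.19 at 24 h, both called. As deposited the call of this 24 h difference was lost (1.81). The 24 h call in SKMEL5 was lost on leaving out any of 10 DMSO arrays (all but the 6 h pair of WM2664), and the 24 h call in A375 on leaving out any of the 4 DMSO arrays of A375, with values of 0.39 to 0.42 and -0.57 to -0.52. Probe sets 206665_s_at and 215037_s_at also fell in A375 at 6 h, with differences of -1.55 and -1.41, and 215037_s_at rose in WM2664 at 24 h by 1.00.

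BCL2, the founding survival gene of the family, fell in SKMEL5 and WM2664. BCL2 had 69.0 units with A-485 in SKMEL5 at 6 h against 143 and 167 units with DMSO, and 47.4 units at 24 h against 175 and 164 units. In WM2664 it had 103 units with A-485 at 6 h against 176 and 159 units with DMSO, and 56.7 units at 24 h against 166 and 129 units. These A-485 arrays were below both DMSO arrays in each case. In A375 the values were 113 units with A-485 against 109 and 124 units with DMSO at 6 h, and 104 units against 94.9 and 126 units at 24 h, so the groups overlapped at both times.

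In SKMEL5, BCL2 fell by 1.16 ± 0.21 at 6 h and by 1.84 ± 0.21 at 24 h (log2 ± SE, adjusted p = 0.00656 and 0.000358 by limma). In WM2664 it fell by 0.70 ± 0.21 at 6 h and by 1.37 ± 0.21 at 24 h (adjusted p = 0.0408 and 0.00181). The A375 differences were -0.04 ± 0.21 and -0.07 ± 0.21 and were not called. At 24 h, the SKMEL5 response minus the A375 response was -1.77 and the WM2664 response minus the A375 response was -1.30, and both were called (adjusted p = 0.00431 and 0.0207). The WM2664 minus A375 call was lost without scaling (-1.03, adjusted p = 0.231), with a floor of 64 (0.133), as deposited (0.364), with no filter on dim probe sets (0.0673) and without the 3 DMSO arrays that carried another line's transcripts (0.0629). The SKMEL5 minus A375 call was lost with a floor of 64 (adjusted p = 0.0702) and as deposited (0.0506). At 6 h neither difference from A375 was called. The 6 h call in WM2664 was lost on leaving out any of 8 DMSO arrays, the 6 h arrays of every line and the 24 h arrays of SKMEL5, with values of -0.77 to -0.63. Without scaling it was -0.22 (adjusted p = 0.588). The 6 h call in SKMEL5 was lost without scaling and as deposited, at -0.82 in both. The other 3 probe sets of BCL2 were too dim to be tested, the brightest of them having a mean log2 of 5.29 against the limit of 5.5.

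BCL2A1 fell in the lines that express it. In SKMEL5, BCL2A1 had 885 units with A-485 at 6 h against 1501 and 1504 units with DMSO, and 631 units at 24 h against 1516 and 1563 units. In WM2664 it had 1180 units with A-485 at 6 h against 2739 and 2783 units with DMSO, and 967 units at 24 h against 2332 and 2336 units. In A375 it had 36.9 units with A-485 at 6 h against 35.9 units and the floor with DMSO, and 59.7 units at 24 h against the floor and 35 units. SKMEL5 and WM2664 with A-485 lay below both DMSO arrays at each time, and A375 with A-485 lay above both but close to the floor.

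The log2 differences of BCL2A1 at 6 h were -0.76 ± 0.09 in SKMEL5 (limma's adjusted p = 0.00113) and -1.23 ± 0.09 in WM2664 (6.84e-05). At 24 h they were -1.29 ± 0.09 and -1.27 ± 0.09 (adjusted p = 3.15e-05 and 4.20e-05). In A375 the 6 h difference of 0.12 ± 0.09 was not called, and the 24 h difference was called at 0.83 ± 0.09 (adjusted p = 0.000733). That A375 value rests on intensities within 2-fold of the floor, and it was 1.33 with a floor of 16 (adjusted p = 0.0814) and 0 with a floor of 64. With the lower floor the calls in SKMEL5 at 6 h and in WM2664 at both times were lost as well, at unchanged differences. The A375 arrays near the floor enter the error of this probe set. Without scaling the 6 h difference was -0.46 in SKMEL5, its call lost, and -0.79 in WM2664, its call kept. As deposited the calls of SKMEL5 (-0.46 at 6 h and -1.37 at 24 h) and WM2664 (-0.79 and -0.98) were all lost.

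MITF moved beside BCL2 and BCL2A1 in SKMEL5 and WM2664. MITF fell in all 3 lines, with differences of -1.34 ± 0.09 in SKMEL5, -2.62 ± 0.09 in WM2664 and -1.13 ± 0.09 in A375 at 6 h, and of -0.50 ± 0.09, -1.51 ± 0.09 and -1.49 ± 0.09 at 24 h (log2 ± SE, all called by limma). In SKMEL5 MITF had 2701 units with A-485 at 6 h against 6851 and 6784 units with DMSO, and 4714 units at 24 h against 6600 and 6712 units. In SKMEL5 the MITF difference was thus nearer 0 at 24 h than at 6 h, and those of BCL2 and BCL2A1 were farther from 0, although the change of BCL2 between times was not called and that of MITF was not tested. In A375 MITF had 198 units with A-485 at 6 h against 460 and 407 units with DMSO. The part of MITF in the change of either gene was not tested.

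MITF binds short E-box motifs, and the RefSeq promoter windows of the genes, which run from 250 bases before the start to 50 after it on GRCh38.p14, were searched for TCATGTG and CACGTG on both strands. Of 13 windows of 7 genes, 1 held TCATGTG and 2 held CACGTG, against 2.92% and 7.26% of 35116 windows of all genes. The BCL2A1 window at chr15:79971147-79971446 (minus strand) is shown because it is the window that holds TCATGTG (capitals), which begins 26 bases before the start:
BCL2A1: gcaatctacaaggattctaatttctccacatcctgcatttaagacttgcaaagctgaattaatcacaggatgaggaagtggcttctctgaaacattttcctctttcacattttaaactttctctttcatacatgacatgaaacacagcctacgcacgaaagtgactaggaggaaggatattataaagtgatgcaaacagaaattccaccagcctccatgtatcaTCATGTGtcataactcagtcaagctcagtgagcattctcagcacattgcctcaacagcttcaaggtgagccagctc
The CACGTG matches were the same site seen in overlapping windows of BID, at chr22:17774073-17774099 (minus strand), with the motif in capitals:
BID: gtgtcctctcCACGTGgcctggggatt
A match describes these letters only and is no evidence of binding. No BCL2 window held either motif. MCL1 and BIK had no window here and were not searched.

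PMAIP1 fell in SKMEL5 and WM2664 at 24 h. PMAIP1 had 64 units with A-485 in SKMEL5 at 24 h against 449 and 432 units with DMSO, and 368 units in WM2664 against 523 and 619 units. At 6 h it had 403 units with A-485 in SKMEL5 against 291 and 282 units, and 512 units in WM2664 against 420 and 407 units. In A375 it had 1976 units with A-485 against 1799 and 1908 units at 6 h, and 1864 units against 1880 and 2312 units at 24 h. In SKMEL5 and WM2664 the A-485 array lay above both DMSO arrays at 6 h and below both at 24 h.

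The 24 h difference of PMAIP1 in SKMEL5 was -2.78 ± 0.14 (log2 ± SE), 6.88-fold lower, with adjusted p = 4.45e-06 by limma, and in WM2664 it was -0.63 ± 0.14 (adjusted p = 0.0105). At 6 h PMAIP1 was higher by 0.49 ± 0.14 in SKMEL5 (adjusted p = 0.0402), and the WM2664 difference of 0.31 ± 0.14 was not called. The A375 differences of 0.09 and -0.16 were not called. The 24 h minus 6 h change of the response was -3.28 in SKMEL5 (adjusted p = 4.05e-05) and -0.93 in WM2664 (adjusted p = 0.0270). The WM2664 change was lost on leaving out either 6 h DMSO array of WM2664 or replicate 2 at 24 h. The second probe set, 204286_s_at, gave 0.52, 0.53 and 0.04 at 6 h and -2.91, -0.68 and -0.09 at 24 h in SKMEL5, WM2664 and A375, of which the values of SKMEL5 and WM2664 were called. At the first probe set the 6 h call in SKMEL5 was lost on leaving out any of 8 DMSO arrays, the 6 h arrays of every line and the 24 h arrays of SKMEL5, with values of 0.47 to 0.52. Without the 3 DMSO arrays that carried another line's transcripts, the 24 h difference in WM2664 was -0.51 (adjusted p = 0.0991), and without scaling between arrays it was -0.28 (adjusted p = 0.530).

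BIK moved in opposite directions in SKMEL5 and A375. BIK had 107 units with A-485 in SKMEL5 at 6 h against 51.8 and 59.2 units with DMSO, and 98.2 units at 24 h against 41.3 and 41.4 units. In A375 it had 95.9 units with A-485 at 6 h against 371 and 440 units, and 142 units at 24 h against 425 and 495 units. All 6 arrays of WM2664 were at the floor. The groups did not overlap in SKMEL5 or A375 at either time. The rise in SKMEL5 was 0.95 ± 0.13 at 6 h and 1.25 ± 0.13 at 24 h (log2 ± SE, adjusted p = 0.00215 and 0.000273 by limma), from levels within 2-fold of the floor. The fall in A375 was -2.08 ± 0.13 at 6 h and -1.69 ± 0.13 at 24 h (adjusted p = 4.19e-05 and 0.000108). In SKMEL5 the 6 h call was lost with a floor of 16 (0.95) and as deposited (1.29). The SKMEL5 call at 24 h was lost as deposited (1.17) and kept with a floor of 64, at a smaller difference of 0.62. As deposited the A375 call at 24 h was lost too (-1.74). The SKMEL5 response minus the A375 response was 3.03 at 6 h and 2.94 at 24 h (adjusted p = 9.69e-05 and 2.89e-05).

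BMF fell in SKMEL5 at both times and in WM2664 at 24 h, when its A-485 level reached the floor in both lines. BMF had the floor value with A-485 in SKMEL5 at 24 h against 110 and 134 units with DMSO, and the floor value in WM2664 against 67.5 and 77.0 units. At 6 h it had 41.4 units with A-485 in SKMEL5 against 92.5 and 59.3 units, and 50 units in WM2664 against 46.5 and 54.2 units. All arrays of A375 were at the floor. The groups did not overlap in SKMEL5 at either time and overlapped in WM2664 at 6 h. At 24 h BMF was at least 3.80-fold lower in SKMEL5 (adjusted p = 0.000608 by limma) and at least 2.25-fold lower in WM2664 (adjusted p = 0.00745). The SKMEL5 difference at 6 h was -0.84 ± 0.24 (adjusted p = 0.0428), and it lost its call on leaving out any of 9 DMSO arrays, all but replicate 2 of SKMEL5 at 6 h and the 24 h arrays of SKMEL5. It was -0.52 without replicate 1 of SKMEL5 at 6 h. Without the 3 DMSO arrays that carried another line's transcripts, the WM2664 difference at 24 h was -1.08 (adjusted p = 0.0980). BMF and BIK passed the intensity filter through the lines in which they are expressed.

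Over the 6 lines and times, BCL2L11 was called once at its main probe set and BID was not called at its own. BCL2L11 had 318 units with A-485 in SKMEL5 at 24 h against 556 and 577 units with DMSO, a difference of -0.84 ± 0.24 (log2 ± SE, adjusted p = 0.0279 by limma). The call was lost without either 24 h DMSO array of SKMEL5, at -0.86 and -0.81. In the other 5 comparisons its differences ran from -0.04 to 0.30 and were not called. The groups overlapped in 4 of these. Other BCL2L11 probe sets differed from it and from each other: 222343_at and 225606_at were lower in WM2664 at 6 h, with differences of -0.54 and -0.74, and higher in A375 at 6 h, by 1.11 and 0.96, all called, whereas 1553088_a_at and 1558143_a_at had no called difference.

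BID was called in 0 of 6 lines and times at its main probe set by limma (2 lower at an unadjusted p under 0.05), with differences of -0.38 to -0.01. Its mean over the lines was called lower at 24 h, at -0.25 (adjusted p = 0.0166 by limma), a call lost without the A-485 array of WM2664 (-0.24) or of A375 (-0.19), in an additive fit, and without scaling (-0.15). Without an A-485 array the mean is taken over the other lines. In A375 at 24 h BID had 523 units with A-485 against 714 and 645 units with DMSO, without overlap, and the difference of -0.38 ± 0.12 had adjusted p = 0.0750 by limma. Its other probe sets were called lower in WM2664 at 24 h, with differences of -0.70 at 204493_at and -0.57 at 227143_s_at, and in A375 at 24 h, with -0.58 and -0.52. Probe set 204493_at was also lower in A375 at 6 h, at -0.43. At 24 h the BID fall is thus called at 2 of 3 probe sets in WM2664 and A375, and at none in SKMEL5.

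The responses of BCL2, BCL2L1, BIK and PMAIP1 differed between lines in which the gene lay above the floor. Of the 132 comparisons of the response between lines over member probe sets, 41 were called, 31.1%, against 10.3% of all tested probe sets. With 1 probe set a gene, 19 of 54 were called, for BCL2, BCL2A1, BCL2L1, BIK, PMAIP1 and BMF. The BMF call against A375 and the BIK calls against WM2664 carry only the response of the other line, since every array of A375 and of WM2664 was at the floor for that gene. The BCL2A1 calls were all against A375, where the DMSO level left no measurable room to fall. In SKMEL5 and WM2664 the survival genes split, with MCL1 higher and BCL2 and BCL2A1 lower, while BCL2L1 was called higher in WM2664 at both times and in SKMEL5 at 24 h. In A375 MCL1 was higher, BCL2L1 lower, BCL2 not called and BCL2A1 near the floor. The response changed with time in 15 of 88 comparisons of member probe sets, 17%. The share over all tested probe sets was 6.49% over the 3 lines and 16.2% for the mean of the lines. The differences of different lines share no arrays, but their error is pooled over all DMSO pairs, so their tests are not independent. The comparisons between lines and between times also reuse the arrays of the single responses.

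The 3 genes whose 6 differences lay nearest to those of MCL1, among 11126 genes by their brightest probe sets, were CARD8-AS1, SYNRG and SAMD8, at a root mean square difference of 0.13, 0.19 and 0.19 (log2) over the 6 comparisons. Nearest to BCL2 were CDK2, CELF2 and LINC00698, at 0.18, 0.19 and 0.21. CARD8-AS1 was higher by 1.09, 1.24 and 0.41 at 6 h and by 1.17, 1.31 and 0.71 at 24 h in SKMEL5, WM2664 and A375. CDK2, a kinase of the cell cycle, had differences of -0.85, -0.39 and -0.02 at 6 h and -1.85, -1.37 and -0.11 at 24 h in the same order of lines.

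Other genes of the cell death pathway were read from 5 lists, each gene by its brightest probe set, where 11.5% to 39.3% of all genes were called in a line and time (23.2%, 28.2% and 11.5% at 6 h and 39.3%, 36.1% and 16.4% at 24 h in SKMEL5, WM2664 and A375). Of 13 tested further BCL2 family genes, 4 were higher and 2 lower in SKMEL5 at 24 h, 4 higher and 1 lower in WM2664 at 24 h, and 1 higher in A375 at 24 h. At 6 h the counts were 1 higher and 1 lower in SKMEL5, 2 higher in WM2664, and 0 in A375 by limma (2 higher at an unadjusted p under 0.05). HRK, another BH3-only gene, fell in SKMEL5 at 6 h and 24 h, by 1.06 ± 0.25 and 0.90 ± 0.25, and in WM2664 at 24 h by 1.27 ± 0.25. BCL2L12 was higher at 6 h, by 0.57 ± 0.11 in SKMEL5 and 0.81 ± 0.11 in WM2664. BNIP3, which acts in the removal of mitochondria, was higher at 24 h, by 0.51 ± 0.10 in SKMEL5 and 0.73 ± 0.10 in WM2664, and its relative BNIP3L rose by 0.70 in A375 at 24 h.

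Downstream of the mitochondria, 7 genes of the apoptosome and caspases were tested. At 24 h, 2 were higher and 1 lower in SKMEL5, 1 higher and 1 lower in WM2664, and 2 higher in A375. CASP9, the initiator caspase of the apoptosome, was higher in WM2664 by 0.65 ± 0.08 at 6 h and 1.00 ± 0.08 at 24 h, higher at 24 h by 0.33 ± 0.08 in A375 and 0.24 ± 0.08 in SKMEL5, and lower in SKMEL5 at 6 h, at -0.43 ± 0.08. APAF1, the scaffold that recruits CASP9, was higher in A375 by 0.35 ± 0.09 at 6 h and 0.40 ± 0.09 at 24 h. CYCS, which encodes cytochrome c, fell by 0.71 in WM2664 at 24 h, and CASP8, the initiator caspase of death receptors, rose by 0.55 in SKMEL5 at 24 h.

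Of 7 inhibitor of apoptosis genes and their antagonists, 3 were higher and 2 lower in SKMEL5 at 24 h and 2 were higher and 2 lower in WM2664 at 24 h. In A375, 0 were called by limma at either time (at an unadjusted p under 0.05, 0 at 6 h and 1 higher at 24 h). XIAP, which blocks caspases directly, rose by 0.41 and 0.36 at 6 h and by 0.56 and 0.43 at 24 h in SKMEL5 and WM2664. BIRC5, which encodes survivin, fell at 24 h, by 1.56 ± 0.09 in SKMEL5 and 0.57 ± 0.09 in WM2664. BIRC7, an inhibitor known from melanoma, fell by 2.39 ± 0.25 in WM2664 and by 0.83 ± 0.25 in SKMEL5 at 24 h. BIRC2 rose by 0.49 at 6 h and 0.56 at 24 h in SKMEL5.

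**Figure D4:**
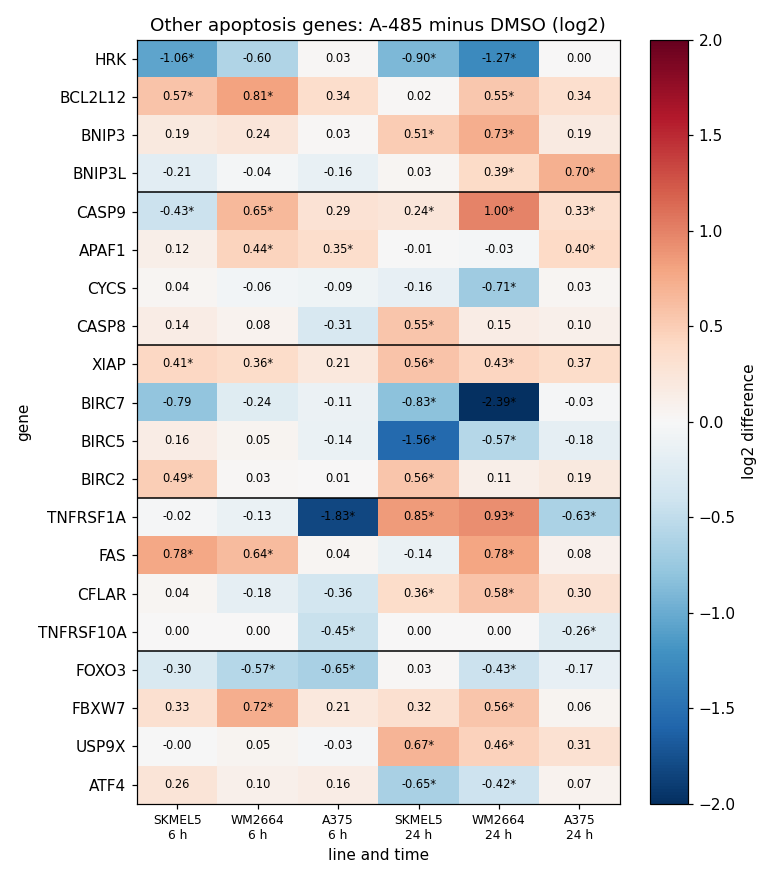
A-485 minus DMSO difference (log2) of up to 4 genes from each of 5 lists, with the line and time along the horizontal axis and colour and number giving the difference. Asterisks mark called differences and horizontal rules part the lists, from the top other BCL2 family genes, apoptosome and caspases, inhibitors of apoptosis, death receptor pathway, and regulators; BIRC7 in WM2664 at 24 h, at -2.39, is the lowest value.

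In the death receptor pathway, 7 genes were tested, and TNFRSF1A, a TNF receptor, was called in opposite directions in A375 and the other lines. TNFRSF1A fell in A375 by 1.83 ± 0.10 at 6 h and by 0.63 ± 0.10 at 24 h, and was higher at 24 h by 0.85 ± 0.10 in SKMEL5 and 0.93 ± 0.10 in WM2664. FAS, a death receptor, was higher at 6 h by 0.78 ± 0.13 in SKMEL5 and 0.64 ± 0.13 in WM2664, and by 0.78 ± 0.13 in WM2664 at 24 h. At 24 h, 3 of the 7 genes were higher in SKMEL5, 3 were higher in WM2664, and 2 were lower in A375. CFLAR, which restrains CASP8, was among those higher, by 0.36 in SKMEL5 and 0.58 in WM2664.

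Of 8 tested regulators of MCL1 turnover and of BH3-only genes, 1 was higher and 3 lower in SKMEL5 at 24 h, and 2 higher and 2 lower in WM2664 at 24 h. USP9X, a deubiquitinase that stabilises MCL1 protein, rose at 24 h, by 0.67 in SKMEL5 and 0.46 in WM2664, and FBXW7, part of a ligase that marks MCL1 for degradation, rose by 0.72 at 6 h and by 0.56 at 24 h in WM2664. ATF4, a stress-response factor known to activate PMAIP1, fell at 24 h, by 0.65 in SKMEL5 and 0.42 in WM2664, beside the fall of PMAIP1 there. FOXO3, known to activate BCL2L11, fell by 0.57 in WM2664 and 0.65 in A375 at 6 h and by 0.43 in WM2664 at 24 h. The part of these regulators in the changes of MCL1, PMAIP1 or BCL2L11 was not tested.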

How the data were processed

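RNA from 18 samples was hybridised to Affymetrix HG-U133 Plus 2.0 arrays, per the labels. The deposited table holds 1 linear intensity for each probe set and array; for the software, background correction and scaling, the sources used here give nothing. Deposited intensities below 0 made up 19.3% to 22.9% of an array, and array medians ran from 19.5 to 29.0. Intensities were quantile normalized, values under 32 were set to 32, and log2 was taken; this hides any change common to most genes.

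limma 3.58.1 (R 4.3.3) fitted 1 model with 12 groups over the 23262 probe sets with a mean log2 of at least 5.5. The fit had 6 residual degrees of freedom, all from DMSO pairs, and 21 contrasts, each adjusted by Benjamini-Hochberg over all probe sets. The script was tested on simulated data. The number of arrays limits the precision, with a median SE of 0.15 (log2) for a line and time.

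The members and gene lists were chosen with earlier results of these data known. Every member is named; values per array are those of its brightest probe set, leaving out names ending in _x_at where another exists. From each other list up to 4 genes are named, those called in most of the 6 comparisons, with ties broken by the larger mean difference. The 3 genes nearest to MCL1 and to BCL2 are named because these had the largest called rise and fall averaged over the lines at 6 h, and MITF is named beside BCL2 and BCL2A1. Symbols come from the platform annotation, updated by Entrez identifier for 41037 of 41091 probe sets with 1 symbol; 1801 had several and 11721 had none listed. Sequences come from RefSeq promoter windows (GRCh38.p14), which were at hand for 7 of the genes, not for MCL1 and BIK. Alternatives tried were other scalings, floors and filters, the as-deposited values, other probe set choices, a replicate block, an additive fit, an intensity trend, and leaving out arrays.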

Additional observations from a re-analysis of the deposited data

Results flagged for a closer look

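The response to A-485 differed between lines, by limma's test of the difference itself, for 19 of 54 gene comparisons. In the same contrasts 31.1% of member probe set comparisons were called, against 10.3% over all tested probe sets. A share over all genes was not computed for them. For BCL2 at 24 h the difference was -1.77 for SKMEL5 minus A375 and -1.30 for WM2664 minus A375, calls that were lost under 2 and 5 of the 12 other alternatives. For BCL2A1 it was -0.89 and -1.35 at 6 h and -2.12 and -2.11 at 24 h for the same pairs of lines, with the DMSO level of A375 near the floor, which left no measurable room to fall there. For BCL2L1 it was 1.80 at 6 h for WM2664 minus A375 and -1.05 at 6 h for SKMEL5 minus WM2664, and at 24 h 0.94 for SKMEL5 minus A375 and 1.5 for WM2664 minus A375. The SKMEL5 minus WM2664 value of BCL2L1 lost its call without either 6 h DMSO array of SKMEL5, at -1.10 and -0.99. That call was also lost without scaling (-1.16), with a floor of 64 (-1.05) and as deposited (-1.16). The BCL2L1 call in SKMEL5 minus A375 was lost without scaling and as deposited (0.95 in both). As deposited the 24 h calls in WM2664 minus A375 of BCL2L1 (1.81) and BCL2A1 (-2.60) were lost. Both 6 h calls of BCL2A1 were lost without scaling (-0.54 and -0.86), with a floor of 16 (-1.18 and -1.65) and as deposited (-0.84 and -1.17).

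For BIK the differences at 6 h were 3.03 for SKMEL5 minus A375, 2.08 for WM2664 minus A375 and 0.95 for SKMEL5 minus WM2664, and at 24 h they were 2.94, 1.69 and 1.25. WM2664 was at the floor on every array for BIK, so its values restate the response of the other line. The 0.95 lost its call without any of 7 DMSO arrays, which were replicate 1 of SKMEL5 at 6 h, both 24 h arrays of SKMEL5 and all 4 arrays of WM2664, at 0.86 to 0.95. For PMAIP1 at 24 h the differences were -2.62 for SKMEL5 minus A375 and -2.16 for SKMEL5 minus WM2664. For BMF at 24 h it was -1.93 for SKMEL5 minus A375, which restates the fall in SKMEL5, since A375 was at the floor on every array. It lost its call without the 3 DMSO arrays that carried another line's transcripts (adjusted p = 0.0558 by limma) and with a floor of 64 (-0.93, adjusted p = 0.202).

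The response also differed between times, 24 h minus 6 h, for 7 of 36 gene comparisons over the lines and their mean. Of member probe set comparisons 17% were called. The share over all tested probe sets was 6.49% over the 3 lines and 16.2% in the mean, and a share over all genes was not computed. For BCL2A1 the 24 h minus 6 h difference was -0.52 in SKMEL5 and 0.71 in A375, and both calls were lost on leaving out single DMSO arrays. In SKMEL5 these were the 8 arrays of SKMEL5 and WM2664 (-0.54 to -0.50), and in A375 they were the same 8 with replicate 1 of A375 at each time (0.63 to 0.71). For PMAIP1 it was -3.28 in SKMEL5, -0.93 in WM2664 and -1.49 in the mean of the lines. Leaving out an A-485 array takes its whole line out of this mean, here and below. Without either A-485 array of SKMEL5 the PMAIP1 mean over WM2664 and A375 was -0.59. For BCL2L1 the mean over the lines was 0.48, a call lost without any of the 4 A-485 arrays of SKMEL5 and A375 (0.36 to 0.46). For BMF it was -0.75, a call lost without any of 11 arrays (-0.75 to -0.54): the A-485 arrays of SKMEL5 and WM2664, all DMSO arrays of A375, replicate 2 of SKMEL5 at 24 h, replicate 1 of WM2664 at 6 h and replicate 2 of WM2664 at 24 h.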

How the results depend on the processing

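Called member probe sets numbered 63 in the single lines and times, 27 in the means of the lines, 41 between lines, 15 between times and 56 between lines under DMSO, with 65 calls of other apoptosis genes. Leaving out 1 array gave 52 to 63, 23 to 28, 33 to 42, 9 to 16 (9 without replicate 1 of WM2664 DMSO at 6 h), 51 to 56 and 56 to 65. Without scaling the counts were 38 in single lines and times, 18 between lines, 6 between times and 31 for other genes, and the median of all tested probe sets moved to 0.35 in SKMEL5 and 0.48 in WM2664 at 6 h and to 0.30 in WM2664 at 24 h. As deposited with a floor of 1 they were 24, 10, 6 and 19. A floor of 16 and a filter at 6.5 each left 27 between lines. Without _x_at and _s_at probe sets, fewer being tested, there were 35, 14, 23, 6 and 30, and 26 for other genes. With 1 probe set a gene there were 31, 12, 25, 8 and 24. Without the 3 DMSO arrays carrying another line's transcripts there were 37, 18 between lines and 6 between times, and the gene calls lost in single lines and times were BCL2 in WM2664 at 6 h (-0.63), MCL1 in A375 at 6 h (0.42), BCL2L11 in SKMEL5 at 24 h (-0.83), PMAIP1 in SKMEL5 at 6 h (0.49) and WM2664 at 24 h (-0.51), and BMF in SKMEL5 at 6 h (-0.84) and WM2664 at 24 h (-1.08). That setting also ended the calls between lines of BCL2 in WM2664 minus A375 at 24 h (-1.48), BIK in SKMEL5 minus WM2664 at both times (0.95 and 1.25) and BMF in SKMEL5 minus A375 at 24 h (-1.93), and between times of BCL2A1 in SKMEL5 and A375 (-0.52 and 0.63), PMAIP1 in WM2664 (-0.84) and BMF in the mean (-0.68). Under DMSO it ended those of BCL2 and BCL2L11 in WM2664 minus A375 (0.48 and -0.60) and BMF in SKMEL5 minus WM2664 (0.65), and in the means that of PMAIP1 at 6 h (0.29). An additive fit left 12 calls in the means. Apart from those that follow from fewer arrays or probe sets, the cause was not tested.

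Of 31 gene calls in single lines and times, 11 were kept under all alternatives that tested their probe set. These were MCL1 in SKMEL5 and WM2664 at both times, BCL2 there at 24 h, and BCL2L1 in WM2664 at both times. The others were BIK in A375 at 6 h, and PMAIP1 and BMF in SKMEL5 at 24 h. Apart from left-out arrays, BMF was tested in 9 alternatives, MCL1 in 10, BIK and PMAIP1 in 11, and BCL2 and BCL2L1 in 12. Only DMSO arrays could be left out for these calls, since each rests on 1 A-485 array. Means over the lines reversed for BIK at 6 h (1.27 as deposited; -1.04 to 0.48 on leaving out 1 array, the highest without the A375 A-485 array) and at 24 h (-0.85 to 0.62, the highest without the A375 A-485 array), for BCL2L1 at 24 h (-0.069 to 0.68, the lowest without the WM2664 A-485 array), and between times for BCL2A1 (-0.19 with a floor of 64) and BIK (-1.57 as deposited). BIK in SKMEL5 minus WM2664 at 6 h was -3.31 as deposited. The MCL1 means ran the same way in every setting tried. Leaving out an A-485 array takes its line out of a mean, so the ranges above carry differences between lines.

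Replicate numbers showed no pairing among the DMSO groups (correlations of -0.06 to 0.04 over 15 pairs of groups). Pairing of A-485 with DMSO arrays of the same number could not be tested, since each A-485 group has 1 array. A replicate block gave 58, 25, 38, 10 and 56 calls and 59 for other genes, and ended calls of BCL2 in WM2664 at 6 h (-0.68), BCL2L1 in SKMEL5 at 24 h (0.38), MCL1 in A375 at 6 h (0.56) and BMF in SKMEL5 at 6 h (-0.83), among others.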
